A study of Homo sapiens with 32 samples.

Results

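The genes described here are 9 regulators and effectors of p53 and of cell cycle entry, namely MDM2, MDM4, CDKN1A, CDKN1B, CDKN2A, CCND1, RB1, GADD45A and SESN2, out of 20037 protein-coding genes on chromosomes 1 to 22, X and Y in the RefSeq table for GRCh38.p14. A peak was assigned to a gene when it overlapped the gene body by at least 1 bp, and this gave 388 of the 474004 m6A peaks in the series, 201 in 786-O and 187 in RPTEC. The study asked whether loss of SETD2, the enzyme that writes trimethylation of histone H3 lysine 36, alters N6-methyladenosine (m6A) in kidney cells. RNA fragments bound by an m6A antibody were sequenced (MeRIP-seq) from 786-O, a clear cell renal cell carcinoma line, and from RPTEC, renal proximal tubule epithelial cells immortalised with hTERT. In each cell line there were 4 lines, the parental line and lines derived from it, with 2 libraries each, which makes 16 peak lists. WT was the parental line. SETD2KO-1 and SETD2KO-2 were separate clones in which SETD2 had been disrupted by CRISPR, and SETD2KO-1R was a clone of SETD2KO-1 that carried a FLAG-tagged full-length SETD2 transgene, so that it kept the history of the knockout clone. The libraries of WT and those of SETD2KO-1R together form the SETD2-expressing group. The labels do not say whether the 2 libraries of a line came from separate cultures, so that p-values measure only the spread between these libraries, which may be technical. 786-O was grown in RPMI1640 with 10% FBS and RPTEC in DMEM/F12, and the track names in the files give the lines different MeRIP run tags, so cell line, medium and run cannot be told apart.

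m6A is deposited on messenger RNA by a complex built around METTL3 and METTL14, mostly at adenosines in a GGAC-like context, and is known for marking long exons and the region around stop codons. p53 is held low in unstressed cells by MDM2, a ubiquitin ligase, and by its relative MDM4, and MDM2 is itself a target of p53. Activated p53 switches on CDKN1A (p21), GADD45A and SESN2, which slow the cycle, act in the DNA damage response and restrain mTOR signalling. CCND1 (cyclin D1) drives the phosphorylation of RB1, the retinoblastoma protein, and CDKN1A, CDKN1B (p27) and the INK4A product of CDKN2A oppose cyclin-dependent kinases, while the ARF product of CDKN2A inhibits MDM2.

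The lists held 25710 to 39670 peaks per library in 786-O and 19249 to 31207 in RPTEC, and at most 0.0309% of the peaks of a list were identical to peaks of another. Each peak carries a whole-number score of unstated scale, which was used only to rank peaks inside their own list; the score percentile below runs from 0 for the lowest peak to 100 for the highest. The read depth of each library is not in the lists, which also carry no strand. Of 14 renal and epithelial identity genes 11 had a peak in some library and 7 in all 16, among them PAX8 with 7 to 18 peaks per library and KRT18 with 1 to 4, whereas LRP2, a receptor of mature proximal tubule, had no peak in any library. SETD2 itself had 4 to 10 peaks per library in 786-O and 4 to 11 in RPTEC, and since a CRISPR lesion need not remove the RNA, these calls do not check the knockout. In RPTEC its covered length was 2341, 1601, 2322 and 2337 bp in the SETD2KO libraries and 3756, 4520, 4320 and 4295 bp in the SETD2-expressing ones, so the groups did not overlap (two-sided exact permutation p = 0.0286, adjusted p = 0.612 over all genes), and in 786-O they overlapped.

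RefSeq start windows were available for 7 of the 9 genes, with 250 bases before and 50 bases after each annotated start on GRCh38.p14. The windows of MDM2, CDKN1A and CDKN2A are shown because these genes start in more than one place or were called right at the start, and the capitals mark the 50 bases after the start, which enter RNA begun there. They are, in order, the upstream MDM2 start (chr12:68807922-68808221, plus strand), the internal MDM2 start from which p53-dependent transcription is known to begin (chr12:68808767-68809066, plus strand), the CDKN1A start (chr6:36678464-36678763, plus strand), the CDKN2A start that corresponds to INK4A (chr9:21974808-21975107, minus strand) and the CDKN2A start that corresponds to ARF (chr9:21995275-21995574, minus strand).
MDM2 upstream start: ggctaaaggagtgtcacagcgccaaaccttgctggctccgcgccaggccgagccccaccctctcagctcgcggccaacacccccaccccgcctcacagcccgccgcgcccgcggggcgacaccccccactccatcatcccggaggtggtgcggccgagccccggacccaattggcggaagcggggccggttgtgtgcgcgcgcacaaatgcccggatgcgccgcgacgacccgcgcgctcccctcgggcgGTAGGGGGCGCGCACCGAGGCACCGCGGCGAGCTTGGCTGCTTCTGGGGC
MDM2 internal start: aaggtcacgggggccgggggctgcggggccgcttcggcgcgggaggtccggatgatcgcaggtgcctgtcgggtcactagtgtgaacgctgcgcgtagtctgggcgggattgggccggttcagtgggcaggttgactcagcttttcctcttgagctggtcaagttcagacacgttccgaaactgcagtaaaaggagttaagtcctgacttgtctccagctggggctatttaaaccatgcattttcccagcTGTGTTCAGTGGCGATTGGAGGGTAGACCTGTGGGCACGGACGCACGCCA
CDKN1A start: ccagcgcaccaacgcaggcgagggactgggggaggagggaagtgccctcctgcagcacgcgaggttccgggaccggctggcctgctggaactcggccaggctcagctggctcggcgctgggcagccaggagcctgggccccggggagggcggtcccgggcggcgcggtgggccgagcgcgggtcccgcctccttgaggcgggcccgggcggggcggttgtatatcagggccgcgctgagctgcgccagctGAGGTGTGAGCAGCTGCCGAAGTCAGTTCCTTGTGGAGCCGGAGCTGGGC
CDKN2A INK4A start: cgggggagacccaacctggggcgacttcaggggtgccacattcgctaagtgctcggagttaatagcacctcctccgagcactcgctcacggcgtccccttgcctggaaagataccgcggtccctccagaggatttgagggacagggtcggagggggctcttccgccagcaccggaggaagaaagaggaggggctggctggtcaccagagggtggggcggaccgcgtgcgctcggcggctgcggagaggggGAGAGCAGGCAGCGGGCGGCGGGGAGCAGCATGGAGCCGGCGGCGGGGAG
CDKN2A ARF start: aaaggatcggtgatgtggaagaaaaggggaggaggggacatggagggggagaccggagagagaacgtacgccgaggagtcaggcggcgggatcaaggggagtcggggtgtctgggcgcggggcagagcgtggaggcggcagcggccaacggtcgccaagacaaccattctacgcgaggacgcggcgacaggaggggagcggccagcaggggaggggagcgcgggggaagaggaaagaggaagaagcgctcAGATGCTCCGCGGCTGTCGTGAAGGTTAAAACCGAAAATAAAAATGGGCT
A peak overlapped the CDKN1A window in 12 of 16 libraries, 7 of 786-O and 5 of RPTEC. The internal MDM2 window was overlapped in 5 libraries, by peaks whose summits lie before the internal start and after the upstream one, and the upstream MDM2 window in none, so the overlap does not place these peaks on RNA begun at the internal start. At CDKN2A the INK4A window was overlapped in 3 libraries, all of RPTEC, and the ARF window in none. The letters GGAC, searched on the transcript strand, stand once in the 50 bases after the internal MDM2 start and not in those after the other 4 starts, and 18.9% of the 35116 windows in the table hold them there. The lower-case bases, not counted here, can also be transcribed. The internal MDM2 window lies after the upstream start, the INK4A window lies after the ARF start, and the CDKN1A gene body begins at chr6:36676463, before its window.

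MDM2 was called in every library. It had 3 and 3 peaks in the 786-O WT libraries, 4 and 3 in SETD2KO-1, 4 and 3 in SETD2KO-2 and 2 and 4 in SETD2KO-1R. In RPTEC it had 3 and 4 peaks in WT, 2 and 3 in SETD2KO-1, 4 and 4 in SETD2KO-2 and 4 and 3 in SETD2KO-1R. The best peak of MDM2 lay between the score percentiles 86.2 and 96.2 in 786-O and between 81.6 and 95.8 in RPTEC, so its rank was high and narrow in both lines. When peaks of all libraries that overlapped were merged into regions, MDM2 had 7, and those at chr12:68839043-68839795 and chr12:68841693-68842307 were called in all 16 libraries. The second of these had a median percentile of 91.0 and summits within 138 bp of each other, and it also lies in CPM, a gene that overlaps the end of MDM2. Its percentiles ran from 81.6 to 96.2, the same span as the best MDM2 peaks. Without strand, that high and narrow rank cannot be assigned to MDM2 alone. Another region at chr12:68825322-68825712 was called in 13 libraries with a median percentile of 81.1, and the region chr12:68808610-68809056, between the upstream and the internal start for most of its length, in 5 libraries with a median of 22.5.

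MDM4, the relative of MDM2 that masks the activation domain of p53, had 2 and 2 peaks in 786-O WT, 2 and 1 in SETD2KO-1, 1 and 3 in SETD2KO-2 and 2 and 1 in SETD2KO-1R. In RPTEC all libraries had 1 peak except SETD2KO-1R replicate 2, which had 3. One region, chr1:204548850-204549843, was called in all 16 libraries with percentiles from 70.9 to 92.3 and summits within 128 bp. The region at the gene's start, chr1:204516315-204516806, was called in 4 libraries of 786-O and in 1 of RPTEC. MDM4 therefore had 1 constant region, about 32444 bp into a gene of 41715 bp, and its other 3 regions were called in 1 to 5 libraries.

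CDKN1A was called in every library, at 1 to 4 peaks in 786-O and 1 to 2 in RPTEC. The 786-O libraries had 1 and 3 peaks in WT, 2 and 3 in SETD2KO-1, 4 and 1 in SETD2KO-2 and 3 and 3 in SETD2KO-1R. The RPTEC libraries had 2 and 1 in WT, 2 and 2 in SETD2KO-1, 2 and 1 in SETD2KO-2 and 2 and 2 in SETD2KO-1R. No region of CDKN1A was common to all libraries. The most often called, chr6:36678527-36679259, overlaps the start window printed above and was found in 13 libraries with a median percentile of 76.7, and it also overlaps DINOL, a long noncoding RNA. The next, chr6:36683757-36684280, was called in 11 libraries with summits within 53 bp and a median percentile of 69.6. In 786-O SETD2KO-2 replicate 2 neither was called and the best CDKN1A peak stood at percentile 15.7, against 76.7 to 87.6 in the other 7 libraries of 786-O.

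CDKN1B had 3 and 2 peaks in 786-O WT, 2 and 1 in SETD2KO-1 and 1 in each of the other 4 libraries of 786-O. In RPTEC it had 2 and 1 in WT, 2 and 1 in SETD2KO-1, 1 and 1 in SETD2KO-2 and 2 and 2 in SETD2KO-1R. The region chr12:12717282-12718237, at the start of the gene, was called in all 16 libraries, with percentiles from 14.8 to 81.0. The best percentile of CDKN1B ranged from 39.4 to 96.8 in 786-O and from 14.8 to 71.5 in RPTEC. The highest of these came from another region, chr12:12718576-12718851, called only in 786-O WT replicate 1 and 786-O SETD2KO-1 replicate 1, at percentiles from 82.5 to 96.8. The region nearest the other end, chr12:12720872-12721323, was called in both 786-O WT libraries and none of the other 6 of 786-O, and in 4 of 8 libraries of RPTEC.

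CDKN2A was the exception among the 9 genes. It had no peak in any of the 8 libraries of 786-O. In RPTEC it had 5 and 2 peaks in WT, 0 and 2 in SETD2KO-1, 0 and 0 in SETD2KO-2 and 1 and 1 in SETD2KO-1R, so that WT held 7 of its 11 peaks. The best percentile was 96.5 and 59.9 in the WT libraries, 16.8 in SETD2KO-1 replicate 2, and 9.8 and 35.7 in SETD2KO-1R. None of its 6 regions was called in more than 3 libraries. The region at the INK4A start, chr9:21974489-21975193, was called in both WT libraries and SETD2KO-1 replicate 2, and chr9:21994048-21994499 near the ARF start in both WT libraries only. The region chr9:21970941-21971407 was called in SETD2KO-1 replicate 2 and both SETD2KO-1R libraries, and not in WT. CDKN2A also overlaps CDKN2B-AS1 and 2 other noncoding genes, and 1 of the 6 regions, called in RPTEC WT replicate 1, lies partly in CDKN2B-AS1. In these bulk libraries fewer cells with an RNA and less RNA per cell cannot be told apart, and a peak needs both RNA and its methylation.

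The neighbours of CDKN2A were examined for the extent of the missing calls. CDKN2B, the adjacent INK4-type inhibitor, had 2 peaks in each of the 6 RPTEC libraries of WT, SETD2KO-1 and SETD2KO-1R, the better of them at percentiles from 81.4 to 94.5, and 0 in both SETD2KO-2 libraries and in all 8 of 786-O. CDKN2B lies within the long noncoding RNA CDKN2B-AS1, so without strand its peaks cannot be assigned to either gene. MTAP, an enzyme of methionine salvage on the other side of CDKN2A, had 9 to 16 peaks in every library of 786-O and 10 to 16 in the same 6 libraries of RPTEC, but 0 and 0 in RPTEC SETD2KO-2. Farther out, KLHL9 had 1 to 3 peaks in all 16 libraries, and DMRTA1 had 1 peak in each RPTEC SETD2KO-2 library. RPTEC SETD2KO-2 thus had no peak from chr9:21334508 to chr9:22367437, a stretch of 1032930 bp that held 7 regions called in all 6 other RPTEC libraries. In 786-O the stretch without peaks ran from chr9:21931216 to chr9:22367612, over 436397 bp and 2 regions called in the 6 RPTEC libraries that had CDKN2B, and it ranked 35 among the stretches of 786-O by the number of such regions, the first of which held 8. The RPTEC SETD2KO-2 stretch held the most such regions of any for that line, but RPTEC WT lacked a stretch of 11 regions on chromosome 3 and the other lines had stretches of up to 4. Among protein-coding genes called in all 6 other RPTEC libraries, 85 of 6138, or 1.38%, had no peak in either SETD2KO-2 library, and MTAP, with 81 peaks in the 6 others, had the most peaks of these. Whether the DNA, the RNA or its methylation was missing was not tested, since the lists hold neither copy number nor RNA level.

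**Figure D1:**
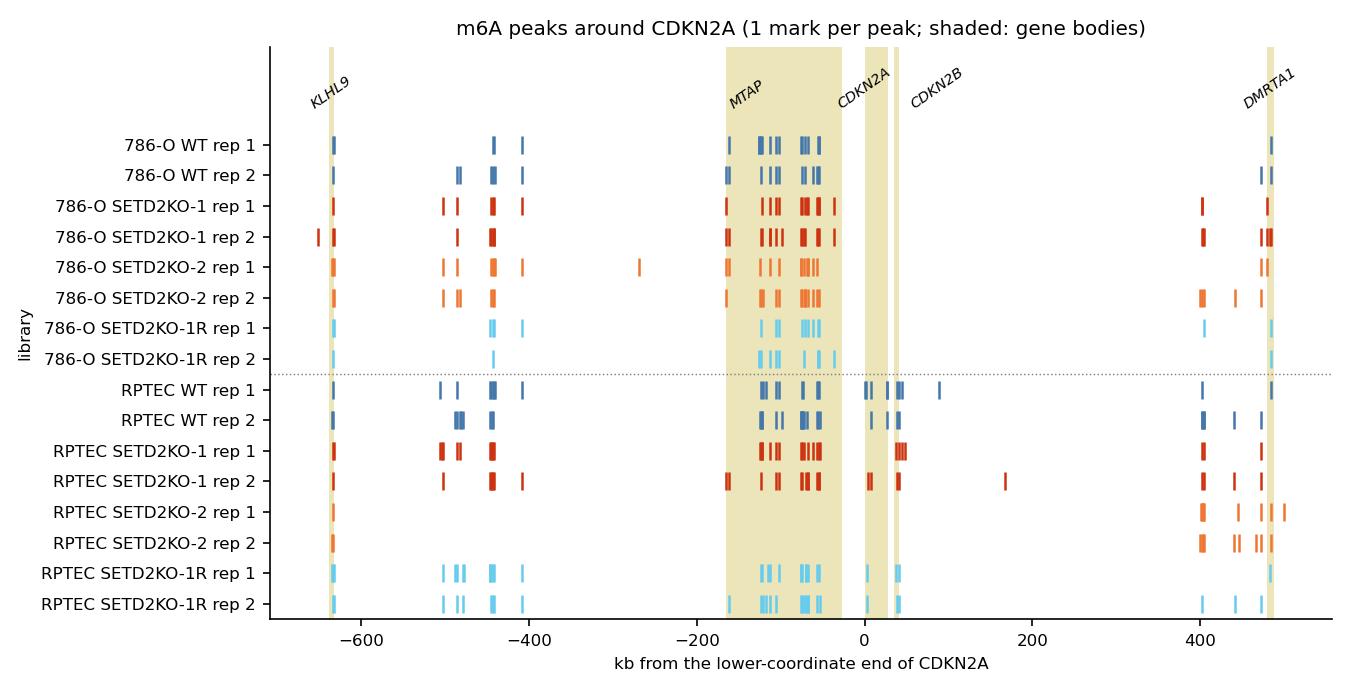
Peaks around CDKN2A in each of the 16 libraries (rows), by distance in kb from the lower-coordinate end of CDKN2A (1 mark per peak, coloured by line as WT blue, SETD2KO-1 red, SETD2KO-2 orange, SETD2KO-1R light blue; shaded bands are gene bodies). No 786-O library has a mark in CDKN2A or CDKN2B, and both RPTEC SETD2KO-2 libraries have none from MTAP to CDKN2B while KLHL9 and DMRTA1 are marked.

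CCND1 had the highest mean percentile of the best peak among the members, 99.0 in 786-O and 97.5 in RPTEC, though other members ranked above it in some libraries. The best CCND1 peak stood at percentile 98.0 to 99.9 in 786-O and 88.6 to 99.6 in RPTEC. In 786-O it had 6 and 6 peaks in WT, 6 and 6 in SETD2KO-1, 6 and 3 in SETD2KO-2 and 6 and 4 in SETD2KO-1R. In RPTEC it had 4 and 3 in WT, 4 and 6 in SETD2KO-1, 6 and 1 in SETD2KO-2 and 5 and 5 in SETD2KO-1R. The region over the start of the gene, chr11:69640640-69641383, was called in all 16 libraries with a median percentile of 98.3. The region chr11:69650286-69651498, toward the end of the gene, was called in 15, missing only RPTEC SETD2KO-2 replicate 2, with summits within 36 bp and a median percentile of 98.0. A region between them, chr11:69645225-69645715, was called in 6 of 8 libraries of 786-O and 0 of 8 of RPTEC, at percentiles from 23.0 to 51.5.

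RB1 had the most regions, 21, of which 9 were called in 1 library. Its peaks numbered 5 and 7 in 786-O WT, 7 and 8 in SETD2KO-1, 6 and 11 in SETD2KO-2 and 10 and 2 in SETD2KO-1R. In RPTEC there were 7 and 3 in WT, 8 and 7 in SETD2KO-1, 6 and 6 in SETD2KO-2 and 8 and 8 in SETD2KO-1R. The 4 regions called in 8 or more libraries all lie between chr13:48395319 and chr13:48422333, inside LPAR6, a receptor gene nested in RB1. Without strand these peaks cannot be assigned to RB1 or LPAR6. Outside LPAR6 the most often called were the region over the start, chr13:48303340-48304155, and chr13:48468008-48468857 near the other end, each in 6 libraries. The region over the start also overlaps RB1-DT, a noncoding gene, so without strand it cannot be assigned to RB1 either.

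GADD45A was called in all 16 libraries, with 4 and 3 peaks in 786-O WT, 3 and 2 in SETD2KO-1, 2 and 1 in SETD2KO-2 and 3 and 1 in SETD2KO-1R. In RPTEC it had 3 and 1 peaks in WT, 1 and 3 in SETD2KO-1, 3 and 1 in SETD2KO-2 and 3 and 3 in SETD2KO-1R. The region chr1:67687435-67687965 at its end was called in every library, with a median percentile of 72.8. The regions chr1:67685025-67685509 over its start and chr1:67685665-67686551 were each called in 10 libraries with higher ranks, at median percentiles of 98.2 and 87.8. The best percentile was 95.4 to 99.6 in the 10 libraries that called the start and 72.9 to 84.3 in the other 6.

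SESN2 was the least regular member outside CDKN2A, called in 6 of 8 libraries of each cell line. It had 1 and 2 peaks in 786-O WT, 1 and 2 in SETD2KO-1, 0 and 3 in SETD2KO-2 and 0 and 2 in SETD2KO-1R. In RPTEC it had 2 and 2 in WT, 1 and 1 in SETD2KO-1, 1 and 0 in SETD2KO-2 and 0 and 1 in SETD2KO-1R. The region chr1:28280537-28281280, toward the end of the gene, was called in 10 libraries with a median percentile of 36.2, and chr1:28267896-28268703 in 7 with a median of 53.8. In RPTEC the latter was called in 3 of 4 SETD2-expressing libraries and 0 of 4 SETD2KO libraries, whereas in 786-O it was called in 1 of 4 SETD2-expressing and 3 of 4 SETD2KO libraries. The percentile of its best peak ran from 15.7 to 94.2, the widest span of ranks among the genes called in both cell lines save CDKN1B.

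**Figure D2:**
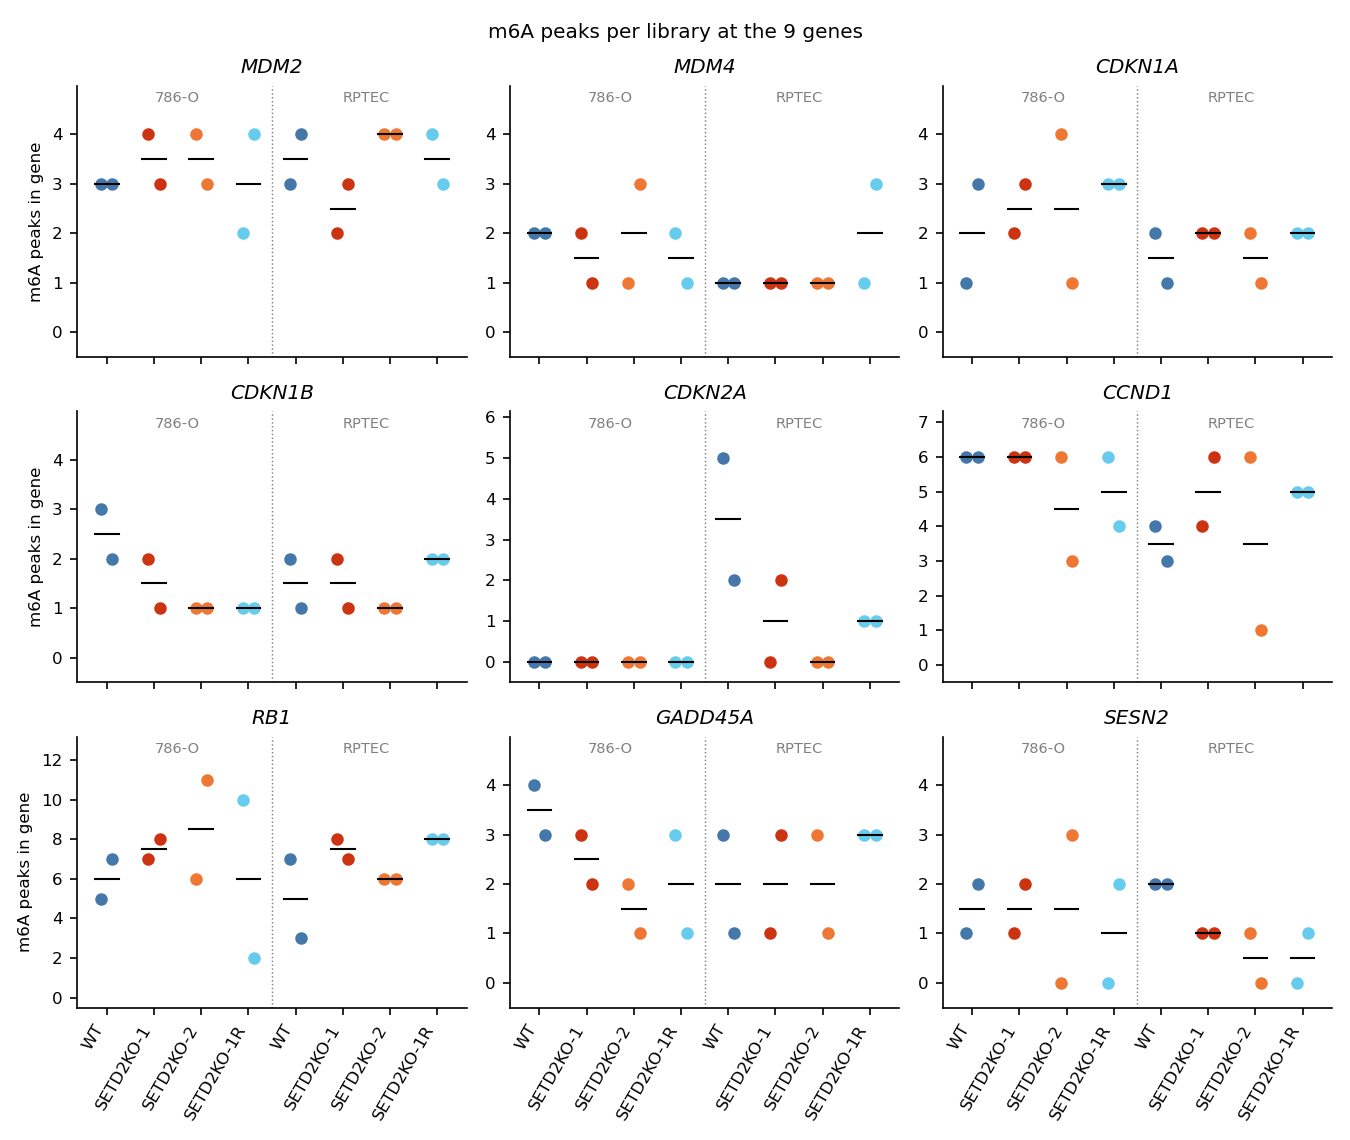
Number of m6A peaks in each of the 9 genes (y axis) for the 8 lines (x axis, 786-O left and RPTEC right of the dotted line), with 1 point per library and a bar at the mean of the 2 libraries. CDKN2A is at 0 in all 786-O lines and in RPTEC SETD2KO-2, and in every panel the ranges of the SETD2KO and the SETD2-expressing points overlap within each cell line.

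**Figure D3:**
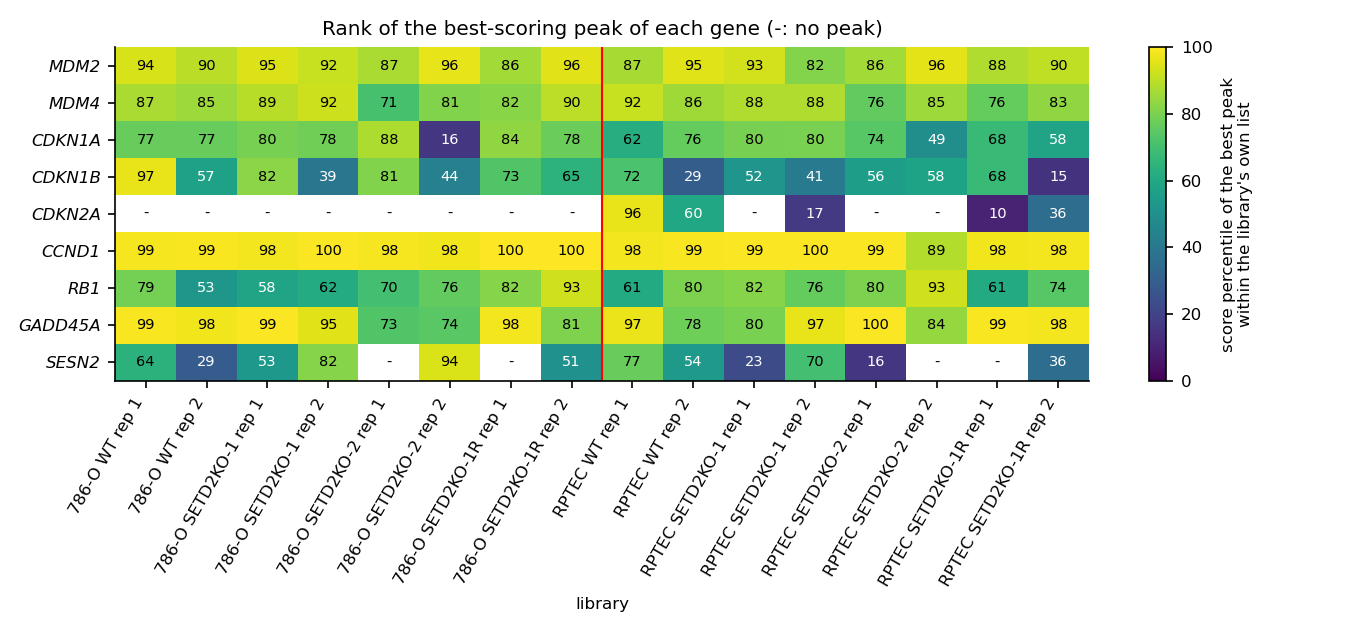
Score percentile of the best peak of each gene (rows) within each library's own list (columns, 786-O left and RPTEC right of the red line; 0 lowest, 100 highest; a dash marks no peak). CCND1 stays between 88.6 and 99.9 and MDM2 between 81.6 and 96.2, while CDKN1B runs from 14.8 to 96.8.

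In all, 7 of the 9 genes had a peak in all 16 libraries, where 34.5% of the 13420 protein-coding genes with any peak did, and SESN2 and CDKN2A were the 2 that did not. The genes held 60 merged regions. Of these, 6 (10.0%) were called in all 16 libraries, against 4.86% of the 82676 regions in protein-coding genes, and 19 (31.7%) in 1 library, against 35.6%. The constant regions were 2 in MDM2, of which 1 also lies in CPM, and 1 each in MDM4, CDKN1B, CCND1 and GADD45A.

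**Figure D4:**
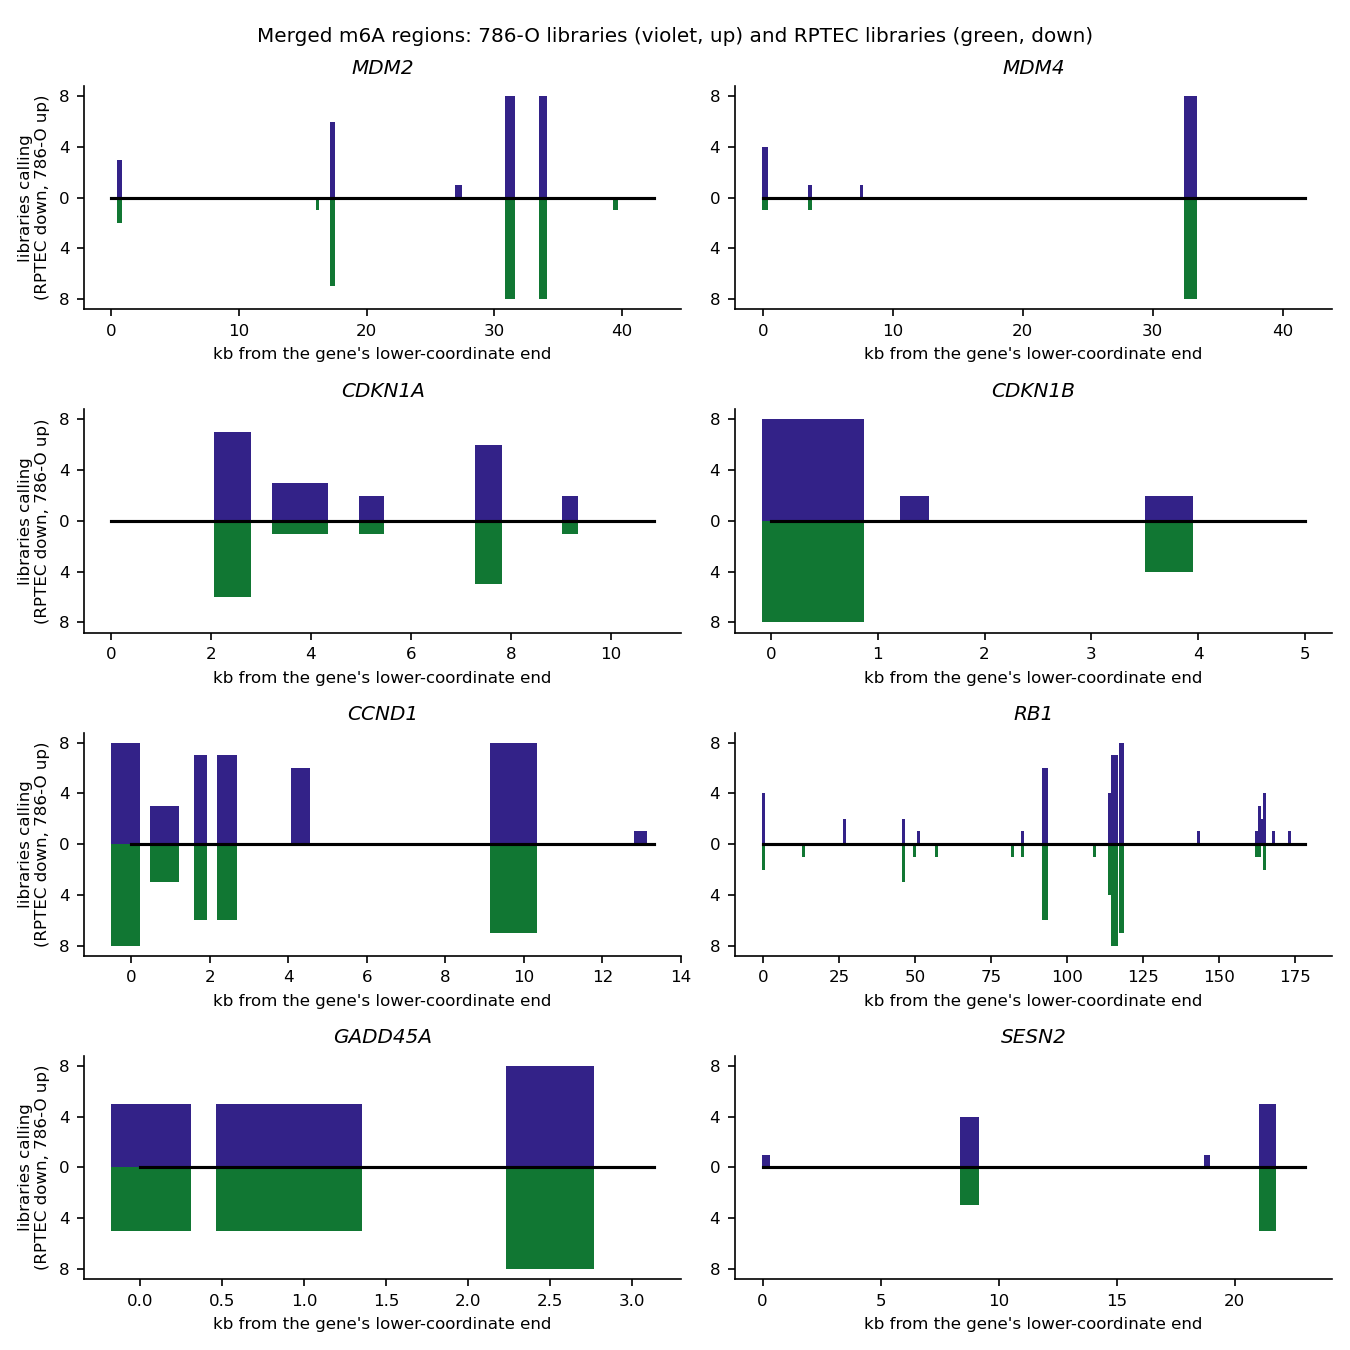
Merged regions of 8 of the genes by distance in kb from the gene's lower-coordinate end, which is the start of all 8; the height is the number of libraries calling the region, 786-O upward (violet) and RPTEC downward (green), and the black line is the gene body. Regions called in 8 libraries of both cell lines occur in MDM2, MDM4, CDKN1B, CCND1 and GADD45A, and the CCND1 region near 4 kb is called in 786-O alone.

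SETD2KO libraries were then compared with SETD2-expressing libraries within each cell line, 4 against 4, by a two-sided exact permutation test whose smallest possible p is 0.0286, reached where the groups do not overlap. None of the members tested separated the groups in either cell line. In 786-O, 0 of 8 members tested by peaks per gene had p under 0.05, against 2.42% of 12430 genes, and the largest difference was in RB1, whose mean was 8.0 peaks with SETD2KO against 6.0 with SETD2 expressed (n = 4 each; exact permutation p = 0.4). This difference of 2.0 came to 0.667 without SETD2KO-1R replicate 2 and to 3.33 without the other SETD2KO-1R library, and leaving out SETD2KO-2 replicate 2 gave 1.0. It turned to -0.25 when only the higher-scoring 50% of peaks were kept and to -0.5 with lists of equal length. Many of the peaks counted for RB1 lie inside LPAR6, so without strand neither this difference nor the RB1 percentiles can be assigned to RB1 alone. By the percentile of the best peak 0 of 7 members had p under 0.05, against 4.57% of 6394 genes, and by covered length 0 of 8, against 5.22%. In RPTEC, 0 of 9 had p under 0.05 by peaks per gene, against 2.42% of 12185 genes, 0 of 7 by percentile, against 3.71% of 5362, and 0 of 9 by covered length, against 4.67%. The percentile of the best CCND1 peak separated the groups of 786-O once SETD2KO-1 replicate 2 was left out, and that of RB1 those of RPTEC once WT replicate 2 was left out, so that the count was then 1 in place of 0. RB1 also separated the groups of 786-O without WT replicate 2, at 58.4 to 76.0 with SETD2KO and 79.0 to 92.6 otherwise. CCND1 likewise separated those of RPTEC without SETD2KO-2 replicate 2. Each went in the opposite direction to the same gene's separation in the other cell line. With groups of unequal size, separation need not bring p under 0.05. After Benjamini-Hochberg adjustment no gene of the whole table passed in any of these 6 tests, the smallest adjusted p being 0.547, and with 70 arrangements per cell line such a result is limited by the design.

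The members' differences went both ways. In 786-O the median difference in peaks over the 8 genes was 0.0, with 3 above and 3 below 0, and 0.0 over all genes tested. In RPTEC it was -0.5 with 1 above and 6 below 0, where the median over all genes was -0.25 and 53.6% of all genes were below 0. The largest RPTEC difference was in CDKN2A, whose mean was 0.5 peaks with SETD2KO against 2.25 with SETD2 expressed (exact permutation p = 0.2, adjusted p = 1.0), and with SETD2KO-1 as the sole knockout it was -1.25. This difference of -1.75 came to -0.833 without WT replicate 1, which had 5 of the peaks. The 2 knockout clones differed from each other here, since CDKN2B and MTAP were called in SETD2KO-1 and not in SETD2KO-2. The effect of SETD2 loss on peak number was not shown to differ between the cell lines for any of the 8 members called in both, with exact permutation p from 0.5 to 1.0 for their interaction terms, and for CDKN2A there was no peak in 786-O to compare.

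No region of the 9 genes was called in all libraries of one SETD2 status and none of the other; without RPTEC SETD2KO-1R replicate 1 there was 1, the SESN2 region chr1:28267896-28268703, called in the 3 remaining SETD2-expressing libraries of RPTEC. Among regions in protein-coding genes, 0.28% were called in SETD2KO only and 0.152% in SETD2-expressing only in 786-O, and 0.195% and 0.213% in RPTEC.

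786-O was compared with RPTEC over 8 libraries each, with a smallest possible p of 0.000155. By peaks per gene 1 of 9 members had p under 0.05, against 18.1% of 13420 genes, and this was CDKN2A, at 0 ± 0 peaks in 786-O and 1.38 ± 1.69 in RPTEC (SD, n = 8; exact permutation p = 0.0256), and its adjusted p over all genes was 0.178. The difference of -1.38 came to -0.857 without RPTEC WT replicate 1, which had 5 of the 11 peaks. CDKN2A entered the test through RPTEC alone, since genes were tested if any library had a peak. The CDKN2A difference kept its direction but not its side of the threshold when lists were cut to their upper 50% or to 19249 peaks each (exact permutation p = 0.467 in both), or when the 4 lines of each cell line were taken as units (exact permutation p = 0.143). Without RPTEC SETD2KO-2, which had no CDKN2A peak, 1 of 9 still passed, and without 786-O WT replicate 1, 786-O SETD2KO-2 replicate 2 or RPTEC SETD2KO-1R replicate 2 in turn 2 of 9 did. By covered length 2 of 9 did, against 28.1% of genes, as CDKN1A joined CDKN2A. CDKN1A peaks covered 664, 1499, 1126, 1282, 2268, 495, 1605 and 1235 bp in the 786-O libraries and 935, 333, 676, 1016, 1056, 649, 726 and 833 bp in those of RPTEC, a difference in means of 494 bp with overlapping groups (exact permutation p = 0.0305, adjusted p = 0.128). By the percentile of the best peak 0 of 7 members had p under 0.05, against 16.9% of 4626 genes. CDKN1B had the largest difference in rank, with a mean percentile of 67.3 ± 19.9 in 786-O and 48.9 ± 19.3 in RPTEC (SD, n = 8; exact permutation p = 0.0842), where 2 of the 786-O libraries ranked by the region called in them only, and it passed the threshold with the replicate number as a block (exact permutation p = 0.0139), with the 4 lines of each cell line as units (p = 0.0286, the smallest possible there), without 786-O SETD2KO-1 replicate 2 or, together with CDKN1A, without 786-O SETD2KO-2 replicate 2. No region of the members was called in all 8 libraries of one cell line and none of the other, as 0.134% of regions in protein-coding genes were for 786-O and 0.156% for RPTEC.

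The rest of the pathway was followed through 4 lists. Of 12 p53 regulators with a peak, 8 were called in all 16 libraries, and of 32 p53 targets 13 were. Among genes of G1 and S phase control 9 of 29 were called throughout, and among genes of G2 and M phase control 2 of 13, against 34.5% of the 13420 protein-coding genes with any peak. By peaks per gene none of the 82 list genes tested in 786-O separated SETD2KO from SETD2-expressing libraries. In RPTEC 1 of 81 did, CREBBP, an acetyltransferase that acts on p53, with 4 to 6 peaks in the knockout libraries against 7 to 10 in the others (exact permutation p = 0.0286, adjusted p = 1.0), where 2.42% of all genes tested did. Between the cell lines, 3 of 32 p53 targets had p under 0.05 with more peaks in 786-O and 4 with fewer, and 2 passed after adjustment over all genes. For G1 and S phase control it was 7 with more and 3 with fewer of 29, of which 3 passed after adjustment, for G2 and M phase control 3 with more and 0 with fewer of 13, with 0 after adjustment, and for p53 regulators 0 of 12. Over all 13420 genes 18.1% had p under 0.05, 1773 with more peaks in 786-O and 651 with fewer. After adjustment 719, or 5.36%, passed. The cell lines did not overlap for 2 list genes, as they did not for 1.87% of all genes. TNFRSF10A, a death receptor and p53 target, had 1 to 2 peaks in 786-O and 3 to 7 in RPTEC (exact permutation p = 0.000155, the smallest these permutations can give, adjusted p = 0.00831). E2F2, a transcription factor released from RB1 at the G1 to S transition, had 1 to 2 peaks in 786-O and 0 in every RPTEC library, so that it entered the test through 786-O alone (exact permutation p = 0.000155, adjusted p = 0.00831). These p-values take the 2 libraries of each line as separate units, and lines as units were not tested for TNFRSF10A or E2F2.

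The covered length of the members over the 16 libraries was set beside that of 9724 protein-coding genes, as a description over libraries that share cell lines and list sizes. CCND1 was most like CIRBP and PLXNB2 (Spearman rho 0.94 for both), CDKN1A was most like RAB1B (0.94) and TACC3 (0.93), and GADD45A most like BTF3 (0.91) and RNPEPL1 (0.90). For MDM2 the nearest was PICALM (0.82), for MDM4 LMBR1 (0.80), for CDKN1B RCL1 (0.88), for RB1 ZNF596 (0.86) and for SESN2 LSM14A (0.76). These are the highest values picked from 9724 genes over 16 libraries. Such values can arise from the selection alone, and none was tested.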

How the data were processed

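MeRIP-seq peak lists of 16 antibody libraries were analysed, 2 for each parental, knockout and rescued line of 786-O and of RPTEC. The 16 Input samples were not analysed here. Reads had been aligned by the authors with STAR and scaled by an E. coli RNA spike-in, and peaks called with MACS2, on hg38 per the submitters' processing notes, which also name HTSeq. The deposited lists, 1 per library, hold peak positions, a summit and a whole-number score whose scale is unstated; the columns for enrichment and significance were 0 throughout. A call depends on RNA level, depth and methylation together.

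Gene bodies came from a RefSeq table (GRCh38.p14; 59792 genes), by symbol. Exon positions were not used here. For each of 20037 protein-coding genes the number of peaks overlapping by at least 1 bp, the covered length and the mid-rank percentile of the best score were computed per library. Groups came from the sample labels and were compared by two-sided exact permutation over libraries, with Benjamini-Hochberg adjustment over all genes tested: genes with a peak in any library compared or, for percentiles, in all. Overlapping peaks were merged into regions. The code was tested on simulated data. Alternatives were lists cut by score, number or length, other overlap rules, merging, other groupings and each library left out. The members and lists were chosen with earlier results of these data known. Named genes were the 9 members, SETD2, the neighbours of CDKN2A, at most 4 genes per comparison of the 4 lists whose groups did not overlap, and the nearest genes by covered length; 1 further gene of this rule and of the lists is not reported here. PAX8, KRT18 and LRP2 were named from the identity markers after their values were seen. These markers were also counted: of 14 renal and epithelial genes 11 had a peak and 7 in all libraries, of 5 clear cell carcinoma genes 3 and 2, and of 4 genes of other cells 1 and 0. Python 3.11.15, NumPy 2.4.6, pandas 2.3.3 and SciPy 1.17.1 were used.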

Additional observations from a re-analysis of the deposited data

Results flagged for a closer look

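In groups of 4 libraries, single libraries stood apart in peak number by Dixon's ratio in 13 of 33 groups with any spread. Chance flags about 1 in 20 groups of continuous values; with whole numbers this small, 3 equal libraries and 1 that differs by a single peak are enough. Low values were those of MDM4 in 786-O SETD2KO-1R replicate 2 (1 peak), of CDKN1A in 786-O WT replicate 1 (1), RPTEC SETD2KO-2 replicate 2 (1) and RPTEC WT replicate 2 (1), of CDKN1B in RPTEC WT replicate 2 (1), of CCND1 in 786-O SETD2KO-2 replicate 2 (3) and 786-O SETD2KO-1R replicate 2 (4), of GADD45A in RPTEC WT replicate 2 (1) and of SESN2 in RPTEC SETD2KO-2 replicate 2 (0). High values were those of MDM4 in RPTEC SETD2KO-1R replicate 2 (3), of CDKN1B in SETD2KO-1 replicate 1 of 786-O (2) and of RPTEC (2), and of CDKN2A in RPTEC SETD2KO-1 replicate 2 (2). RPTEC SETD2KO-2 replicate 2 and RPTEC WT replicate 2, named 5 times among the low values, had the shortest lists of RPTEC, with 19249 and 23126 peaks, and 786-O SETD2KO-1R replicate 2, named for MDM4 and CCND1, had the shortest of 786-O, with 25710. Whether list length accounts for these values was not tested.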

How the results depend on the processing

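The counts of members with p under 0.05 between SETD2KO and SETD2-expressing libraries were 0 under every alternative other than leaving out a library, where they ran from 0 to 0 by peaks per gene and from 0 to 1 by percentile in each cell line; with SETD2KO-1 or SETD2KO-2 alone, or against WT only, p cannot fall under 0.05 by design. Replicate numbers did not pair the libraries (correlations of deviations from -0.06 to 0.30 in 786-O and from -0.29 to 0.27 in RPTEC), and with the replicate block the counts stayed at 0, where p likewise cannot fall under 0.05. Between cell lines the count by peaks per gene, 1, became 0 in the upper 50% of each list, with lists of equal length, with lines as units and with WT libraries alone (where p cannot fall under 0.05), 2 with peaks of at least 288 bp or with base pairs covered, 1 to 2 with each library left out, and 1 with the replicate block. By percentile it was 0, became 1 with the replicate block and 1 with lines as units, both for CDKN1B, and 0 to 2 with each library left out. Member regions called on one side only numbered 0, and 0 to 1 with each library left out. The alternatives of leaving out peaks shared with another protein-coding gene and leaving out RPTEC SETD2KO-2, were chosen after seeing the data, and with both the count between cell lines by peaks per gene was 1.

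Of 592 differences at single members under alternatives, 33 had the opposite sign, all at members whose difference had not passed the test. For SETD2KO in 786-O, MDM2 and RB1 became -0.25 and -0.25 in the upper 50% and -0.25 and -0.5 with lists of equal length, CCND1 became 0.5 by midpoint and 0.5 with SETD2KO-1 alone, and SESN2 -0.25 with the length minimum. In RPTEC, MDM2 and CDKN1B became 0.25 and 0.25 in the upper 50% and 0.25 and 0.25 with lists of equal length, MDM2 and RB1 0.5 and -0.5 with SETD2KO-2 alone, and RB1 -128 bp by covered length. Between cell lines, RB1 became -0.5 in the upper 50% and -1.38 with lists of equal length, MDM2 15 bp by covered length and 0.0833 without RPTEC SETD2KO-2, and SESN2 -0.5 in WT alone. With each library left out, the differences ran from -0.75 to 0.5 (CCND1) and -0.25 to 0.75 (SESN2) in 786-O, from -0.5 to 0.167 (MDM2) and -0.917 to 0.75 (RB1) in RPTEC, and between cell lines from -0.321 to 0.0536 (MDM2), -0.196 to 1.09 (RB1) and -0.107 to 0.321 (GADD45A). The cause was not tested. Read depth per library is not in the lists, and whole-number counts this low limit what 4 libraries a group can separate.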
